A study of Mus musculus with 64 samples.

Results

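Fatty acid oxidation breaks down fatty acids to acetyl-CoA, and ketogenesis turns part of that acetyl-CoA into ketone bodies. The genes described here are 31 genes of these pathways, picked by gene symbol: Cpt1a, Cpt2, Slc25a20, Acsl1 and Acsl5 (activation and entry into mitochondria), Acadvl, Acadl, Acadm, Acads, Hadha, Hadhb, Hadh, Echs1 and Acaa2 (the mitochondrial beta-oxidation cycle), Eci1, Eci2 and Decr1 (auxiliary enzymes for unsaturated fatty acids), Etfa, Etfb and Etfdh (electron transfer), Ehhadh, Hsd17b4 and Acaa1a (peroxisomal oxidation), Acat1 and Bdh1 (ketone body metabolism), Ppara, Pparg and Ppargc1a (transcriptional regulators) and Pdk4, Angptl4 and Ucp2 (genes that respond to the choice between fat and glucose as fuel). All 31 were found among the 35534 genes of each deposited table, and all 31 passed the filter on low counts in both tables. The list was chosen with earlier results of these data known. Its shares set beside those of all genes are therefore descriptions and no independent support.

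The tissue was whole colon of wild-type Swiss Webster mice, 8 to 12 weeks old, fed standard chow and kept with lights on for 12 h and off for 12 h. Germ-free (GF) mice, which carry no bacteria, and specific pathogen free (SPF) mice, which carry a gut microbiota, were each given intraperitoneal vancomycin, an antibiotic against Gram-positive bacteria (2.5 mg in 100 µl phosphate-buffered saline, PBS), or 100 µl PBS, 2 injections a day for 3 days and 1 more on the day after. Tissue was taken at zeitgeber time (ZT) 5, 11, 17 or 23, in hours from lights on, so that ZT5 and ZT11 fall in the light and ZT17 and ZT23 in the dark. The 16 groups were therefore GF vancomycin, GF PBS, SPF vancomycin and SPF PBS, each at 4 times, with 4 libraries a group and 64 in all. GF mice were housed in ISOcages, outside their isolators, during treatment. The labels do not say that the libraries of a group come from separate mice, so p-values reflect how far libraries of a group differ, which may be technical.

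In beta-oxidation, a fatty acid is joined to coenzyme A by an acyl-CoA synthetase, carried into the mitochondrion as a carnitine ester, and shortened in repeated cycles of dehydrogenation, hydration, dehydrogenation and cleavage. Colon epithelial cells are known for taking much of their energy from butyrate, a short-chain fatty acid made by bacteria, which they oxidise in this cycle. Nuclear receptors of the PPAR family, activated by fatty acids, switch on many of the genes, and several of them are known to cycle through the day in liver.

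Libraries held 10513966 to 15736087 estimated counts in the GF table and 10044032 to 13615804 in the SPF table. Levels are given as CPM, counts scaled to a common library total, or as log2 CPM. GF and SPF libraries were deposited in separate tables, so their levels are set side by side and not tested. All 11 epithelial markers were found in every library, with a summed level of 11602 to 30843 CPM in GF and 10621 to 19211 CPM in SPF colon. All 10 adipocyte markers were found as well, summing to 145 to 1872 CPM in GF and 115 to 1009 CPM in SPF colon, with Adipoq at 0 in at least 1 library of each table. A score of position along the colon, the mean log2 CPM of 5 distal minus 6 proximal Hox genes, ran from -3.38 to 5.31 in GF libraries, where 15 of 32 lay at 3 or below. In SPF libraries it ran from 3.07 to 5.34. GF libraries therefore differed in the Hox score far more than SPF libraries, and its mean by time was 0.76, 3.61, 2.67 and 2.43 at ZT5, ZT11, ZT17 and ZT23. Of 15 clock genes tested, 13 in GF and 14 in SPF colon differed with time of day.

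The mean log2 CPM over the 31 genes moved within a narrow range. In GF vancomycin libraries it was 6.35 ± 0.32 at ZT5, 6.19 ± 0.19 at ZT11, 6.15 ± 0.15 at ZT17 and 6.35 ± 0.26 at ZT23 (SD, n = 4 libraries each here and in the next 3 sentences). In GF PBS libraries it was 6.40 ± 0.23, 6.11 ± 0.10, 6.42 ± 0.25 and 5.94 ± 0.12 at the same times. It stood at 6.02 ± 0.039, 5.95 ± 0.17, 6.28 ± 0.16 and 6.11 ± 0.11 in SPF vancomycin libraries. In SPF PBS libraries the values were 6.14 ± 0.067, 6.11 ± 0.15, 6.33 ± 0.054 and 6.15 ± 0.14. ZT17 was highest under both treatments in SPF colon, whereas in GF colon the order of times differed between the treatments. The heat map of the 31 genes shows the same contrast gene by gene.

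**Figure D1:**
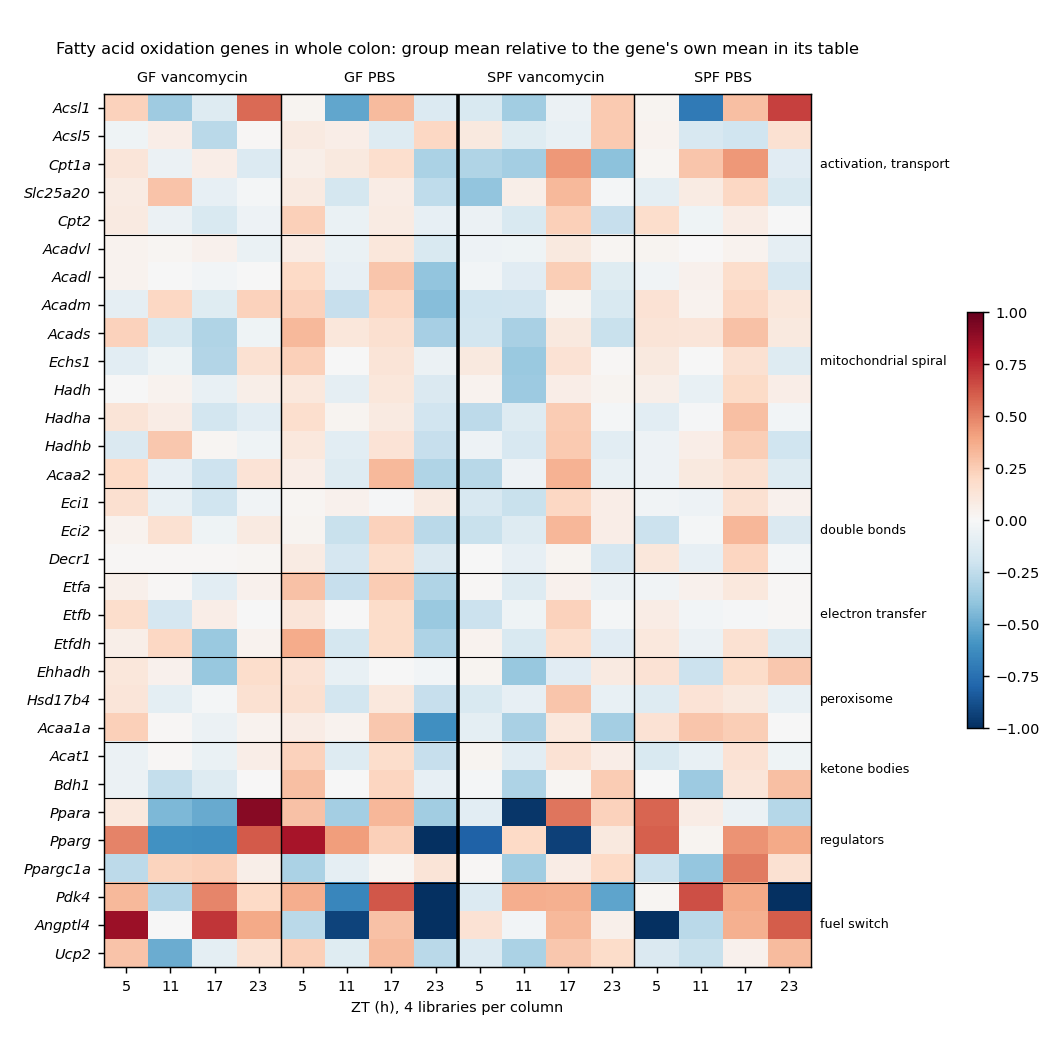
Heat map of the 31 genes (rows, grouped by role) in the 16 groups (columns, GF vancomycin, GF PBS, SPF vancomycin and SPF PBS, each in the order ZT5, ZT11, ZT17, ZT23). Colour is the group's mean log2 CPM (n = 4 libraries) minus the gene's mean over the 8 groups of its own table, with the colour scale cut at ±1. The ZT17 columns of both SPF treatments are the warmest for most genes, and 24 of the 31 genes had their highest SPF mean at that time.

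More genes of the set differed with time of day than with vancomycin, all of them in SPF colon. In GF colon 0 of 31 genes differed with time averaged over both treatments, and in SPF colon 15 of 31 did (edgeR quasi-likelihood F test over 4 times, Benjamini-Hochberg adjusted p up to 0.05 over all genes tested). Of all genes tested, 0.991% were called in GF and 21.1% in SPF colon. The SPF share for the 31 genes was thus above that of all genes, which is a description and not a test. The list was chosen with earlier results of these data known.

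In GF colon, 7 of the 31 genes had an unadjusted p under 0.05 for time of day, and DESeq2 and limma also called 0. Within GF vancomycin libraries alone 0 genes were called, with 3 unadjusted p-values under 0.05 (9.51% of all genes), and within GF PBS libraries 0 were called by edgeR and limma and 4 by DESeq2, with 15 such p-values (14.7% of all genes). The share of all genes called by edgeR was 0.142% within each treatment. The smallest adjusted p-values were 0.21 for Hadha, 0.23 for Ucp2 and Hadhb, and 0.24 for Pdk4 and Acadl, followed by 0.31 for Acaa1a and Etfb and 0.34 for Decr1 (edgeR). Of the 31 GF means, 19 were highest at ZT5, which is 61.3% against 26.8% of all genes tested. The treatments shared little of this: ZT5 was highest for 12 genes in GF vancomycin libraries and 13 in GF PBS libraries but for 4 in both, while 11 genes were highest at ZT23 with vancomycin and 15 at ZT17 with PBS. The ZT5 libraries also had the lowest mean Hox score. In GF vancomycin at ZT5 and ZT23 and in GF PBS at ZT5 and ZT17, 3 of 4 libraries scored 3 or below. The other GF groups had at most 1 such library. The part of colon position in this pattern of highest times was not tested. Acaa1a, the peroxisomal thiolase, had 82.9, 105 and 154 CPM at ZT5 (lowest, median and highest of 8 GF libraries), 75.7, 99.7 and 134 at ZT11, 76.3, 102 and 153 at ZT17 and 55.6, 75.1 and 136 at ZT23. Acadl, the long-chain acyl-CoA dehydrogenase, ran at 87.3, 106 and 138 CPM at ZT5, 86.5, 93.9 and 125 at ZT11, 90.9, 104 and 154 at ZT17 and 72.9, 80.2 and 130 at ZT23. The libraries of all 4 times overlapped for both genes.

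In SPF colon the called genes came from 7 of the 8 roles: 4 of 5 genes of activation and transport, 4 of 9 of the mitochondrial cycle, 1 of 3 auxiliary enzymes, 2 of 3 peroxisomal genes, 1 of 2 ketone genes, 1 of 3 regulators and 2 of 3 fuel-choice genes. None of the 3 electron transfer genes passed the threshold, and 0 of these had an unadjusted p under 0.05. Of the 31 SPF means, 24 were highest at ZT17, in the dark phase, 6 at ZT23, 1 at ZT11 and 0 at ZT5. ZT17 was the highest time for 77.4% of the 31 genes, against 22.6% of all genes tested and 18.5% of all genes called. These shares describe a list chosen with earlier results known and are no test. Of the 15 called genes 9 were highest at ZT17, 5 at ZT23 and 1 at ZT11. The summed epithelial markers had medians of 15097, 12546, 14791 and 16641 CPM at ZT5, ZT11, ZT17 and ZT23. These medians were lowest at ZT11 and highest at ZT23, as were Acsl1 and Bdh1. The ranges of the summed markers overlapped between all 4 times, with 11777 to 17424 CPM at ZT17 and 12773 to 19211 CPM at ZT23. Summed smooth muscle markers varied more, with medians of 10516, 18274, 11341 and 6988 CPM at these times, highest at ZT11 and lowest at ZT23. A fit with the epithelium score as a covariate is among the other settings whose counts are given at the end. No fit held a smooth muscle score, so the part of smooth muscle in the time-of-day results was not tested.

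The promoters of Hadha, Hadhb and Cpt1a are shown as context for the time-dependent genes, the first pair because their windows overlap. Hadha and Hadhb encode the alpha and beta subunits of the mitochondrial trifunctional protein, which carries out the last steps of the cycle on long-chain substrates. They lie head to head on chromosome 5 with start sites 273 bases apart, and in SPF colon both were called for time of day and both were highest at ZT17. Their RefSeq promoter windows (250 bases before to 50 after the start, build GRCm38.p6) are chr5:30154931-30155230 on the minus strand for Hadha and chr5:30155003-30155302 on the plus strand for Hadhb. The 228 bases that the windows share are in capitals, read on each gene's own strand.
Hadha: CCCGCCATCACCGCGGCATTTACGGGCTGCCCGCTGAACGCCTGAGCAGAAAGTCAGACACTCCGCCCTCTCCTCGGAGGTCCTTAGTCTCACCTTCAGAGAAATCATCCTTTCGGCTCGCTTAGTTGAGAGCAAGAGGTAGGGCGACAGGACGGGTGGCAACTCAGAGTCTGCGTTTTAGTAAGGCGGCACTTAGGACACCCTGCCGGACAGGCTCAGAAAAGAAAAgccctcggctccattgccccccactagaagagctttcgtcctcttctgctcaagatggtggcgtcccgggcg
Hadhb: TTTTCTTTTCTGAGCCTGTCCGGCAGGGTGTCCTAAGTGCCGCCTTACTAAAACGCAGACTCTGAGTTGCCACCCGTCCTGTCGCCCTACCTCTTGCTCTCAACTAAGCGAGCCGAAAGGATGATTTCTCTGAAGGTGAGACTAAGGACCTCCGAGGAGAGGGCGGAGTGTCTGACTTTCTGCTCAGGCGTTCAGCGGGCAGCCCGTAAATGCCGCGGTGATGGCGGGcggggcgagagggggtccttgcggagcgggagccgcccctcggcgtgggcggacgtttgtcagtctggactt
Cpt1a, the gene of the carnitine palmitoyltransferase that limits the entry of long-chain fatty acids into mitochondria, has the window chr19:3323051-3323350 on the plus strand. Its capitals mark TGACCT, the reverse complement of AGGTCA, 94 bases before the start site.
Cpt1a: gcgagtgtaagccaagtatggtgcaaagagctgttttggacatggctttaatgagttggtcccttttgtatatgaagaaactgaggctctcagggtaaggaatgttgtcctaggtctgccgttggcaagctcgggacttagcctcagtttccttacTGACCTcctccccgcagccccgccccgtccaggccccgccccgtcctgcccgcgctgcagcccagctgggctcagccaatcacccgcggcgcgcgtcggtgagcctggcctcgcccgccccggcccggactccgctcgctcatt
RefSeq windows were used for 26 of the 31 genes, 30 windows in all. For the 31 genes a chromosome was left out of the search, while the set of all windows had no such limit. AGGTCA, the letters bound by many nuclear receptors, was in 6 of the 30 on either strand, against 16.3% of all 32851 windows. The DR1 element, a direct repeat of AGGTCA with 1 base between the copies, the E-box CACGTG and the D-box TTATGTAA were in 0 of the 30, against 0.0396%, 7.15% and 0.938% of all windows. These are counts of letters in the windows and no evidence of binding or its absence.

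Among genes of activation and transport, Cpt1a had 110, 145 and 173 CPM at ZT5 (lowest, median and highest of 8 SPF libraries, as for the genes that follow), 102, 165 and 207 at ZT11, 152, 212 and 283 at ZT17 and 102, 128 and 153 at ZT23. The ZT17 libraries overlapped those of ZT23 only at the edge, and the mean levels (averaged as log2 CPM) at the highest and lowest times were 1.62-fold apart (adjusted p = 7.9e-05, edgeR). Acsl1, a long-chain acyl-CoA synthetase, had 23, 26.8 and 39.0 CPM at ZT5, 13.2, 22.3 and 27.7 at ZT11, 18.5, 34.8 and 41.5 at ZT17 and 26.3, 45.2 and 58.0 at ZT23. It was highest at ZT23 and lowest at ZT11, 2.00-fold apart (adjusted p = 0.00031, edgeR), with a small overlap between those times. Slc25a20, the carnitine-acylcarnitine carrier, and Acsl5 passed as well (adjusted p = 0.011 each, edgeR), the carrier highest at ZT17 and Acsl5 at ZT23. Cpt2, which restores acyl-CoA inside the mitochondrion, did not pass (adjusted p = 0.17, edgeR).

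In the mitochondrial cycle, Hadhb had 154, 173 and 197 CPM at ZT5, 130, 177 and 200 at ZT11, 171, 213 and 244 at ZT17 and 126, 163 and 176 at ZT23, with the highest and lowest means 1.32-fold apart (adjusted p = 0.0047, edgeR). Acadl had 94.9, 102 and 115 CPM at ZT5, 84.5, 105 and 116 at ZT11, 103, 123 and 151 at ZT17 and 81.1, 98.0 and 103 at ZT23, a 1.28-fold range (adjusted p = 0.0039, edgeR). All 8 ZT17 libraries of Acadl lay above all 8 of ZT23, though by less than 1 CPM at the edge, while those of ZT5 and ZT11 overlapped both. Hadha and Acaa2, a mitochondrial thiolase, were the other called genes here (adjusted p = 0.0025 and 0.015, edgeR). Hadh, Echs1, Acads, Acadm and Acadvl did not pass, with adjusted p-values of 0.053 to 0.74 (edgeR).

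The strongest statistic in the set was that of Eci2, an enoyl-CoA isomerase that moves double bonds in unsaturated fatty acids. Its levels were 37.3, 38.6 and 41.3 CPM at ZT5, 39.2, 41.8 and 47.6 at ZT11, 51.8, 56.2 and 60.5 at ZT17 and 37.8, 44.8 and 53.3 at ZT23. Every ZT17 library stood above every library of ZT5 and ZT11, with overlap only at ZT23, and the range was 1.46-fold (adjusted p = 2.3e-06, edgeR). Among peroxisomal genes, Ehhadh and Hsd17b4, both multifunctional enzymes of peroxisomal beta-oxidation, passed (adjusted p = 0.016 and 0.024, edgeR). Bdh1, which interconverts the ketone bodies acetoacetate and 3-hydroxybutyrate, had 127, 151 and 163 CPM at ZT5, 102, 119 and 141 at ZT11, 118, 155 and 205 at ZT17 and 137, 195 and 221 at ZT23. It was highest at ZT23 and lowest at ZT11, 1.53-fold apart (adjusted p = 0.0018, edgeR), with a small overlap between those times.

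Both Ucp2 and Pdk4 differed with time. Ucp2, a carrier of the mitochondrial inner membrane, had 395, 431 and 457 CPM at ZT5, 326, 380 and 457 at ZT11, 453, 534 and 617 at ZT17 and 498, 547 and 656 at ZT23, and all 8 ZT23 libraries were above all libraries of ZT5 and ZT11 (1.43-fold range, adjusted p = 1.3e-05, edgeR). Pdk4, the kinase that shuts off pyruvate dehydrogenase when fat is burned, had 4.41, 6.32 and 8.91 CPM at ZT5, 5.64, 8.11 and 18.1 at ZT11, 5.69, 8.34 and 13.2 at ZT17 and 2.49, 3.21 and 6.24 at ZT23. It was lowest at ZT23 and highest by mean at ZT11, 2.49-fold apart (adjusted p = 0.00018, edgeR). Angptl4, a secreted inhibitor of lipoprotein lipase, ranged from 0.448 to 13.9 CPM over the SPF libraries and did not pass (adjusted p = 0.68, edgeR).

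Of the regulators, Ppargc1a, the PPARG coactivator that drives mitochondrial gene expression, had 19.6, 25.4 and 38.5 CPM at ZT5, 17.1, 23.5 and 27.9 at ZT11, 20.6, 38.6 and 57.1 at ZT17 and 22.1, 29.3 and 49.2 at ZT23 (adjusted p = 0.036, edgeR). All 4 times overlapped, and the call was lost in 3 of the other settings and when any 1 of 8 libraries was left out. Ppara and Pparg did not pass (adjusted p = 0.19 and 0.85, edgeR). Their SPF libraries ran from 1.92 to 18.6 CPM for Ppara and from 8.81 to 133 CPM for Pparg, with overlap of all times.

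**Figure D2:**
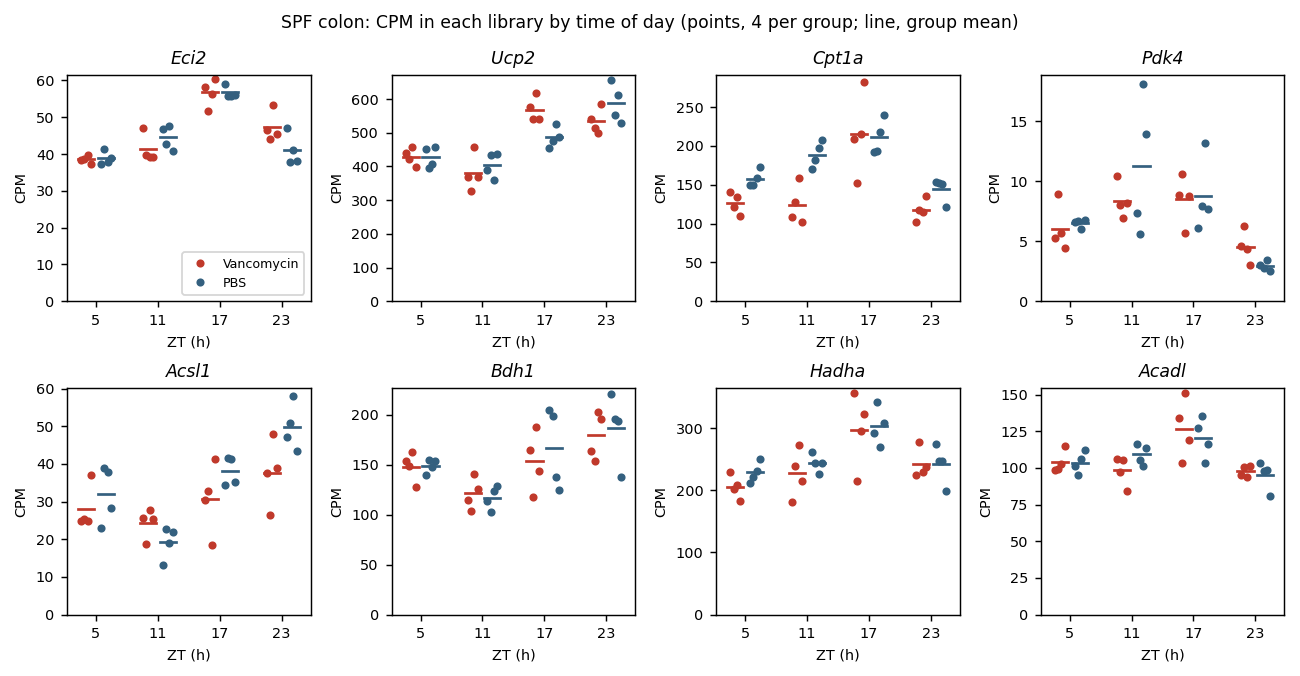
CPM (vertical axis) by ZT in hours (horizontal axis) for the 8 genes with the smallest time-of-day p in SPF colon, with each point a library, vancomycin in red and PBS in blue, and each bar the mean of 4 libraries. Eci2, Cpt1a, Hadha and Acadl are highest at ZT17, Ucp2, Acsl1 and Bdh1 at ZT23, and Pdk4 is lowest at ZT23.

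Within each treatment alone the SPF counts were smaller, with 7 of 31 genes called in vancomycin libraries and 6 of 31 in PBS libraries, against 8.2% and 8.9% of all genes tested. ZT17 was the highest time for 24 genes in SPF vancomycin libraries and for 18 in SPF PBS libraries, and for 17 of them in both. No gene of the set had a treatment by time interaction in SPF colon (0 called of 31 against 0.36% of all genes tested). DESeq2 and limma called 0 as well, and 3 genes had an unadjusted p under 0.05 (9.79% of all genes). In bulk tissue, fewer cells of a type and less RNA per cell cannot be told apart in any of these results.

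Other genes of the same pathways were read from a list of 89, of which 81 were tested in SPF colon. Time of day was called for 19 of the 81, a share close to the 21.1% of all genes tested: 5 of 15 for uptake and activation, 2 of 7 for carnitine, 2 of 18 for further mitochondrial oxidation, 3 of 14 peroxisomal, 2 of 7 for ketones and 5 of 20 PPAR partners and targets. Aacs, which activates acetoacetate for lipid synthesis, was highest at ZT23, with 47.1, 70.5 and 94.4 CPM at ZT5, 56.0, 67.8 and 116 at ZT11, 63.8, 87.6 and 118 at ZT17 and 107, 140 and 198 at ZT23 (adjusted p = 0.00018, edgeR). Acss1, which makes acetyl-CoA from acetate in mitochondria, had 60.9, 83.1 and 96.1 CPM at ZT5, 60.5, 103 and 123 at ZT11, 60.6, 71.4 and 77.7 at ZT17 and 56.0, 61.2 and 78.8 at ZT23 (adjusted p = 0.00025, edgeR). In GF colon 1 of 83 was called, against 0.991% of all genes, namely Pdk2, another pyruvate dehydrogenase kinase, at 65.1, 73.0 and 79.3 CPM at ZT5, 73.1, 80.9 and 97.6 at ZT11, 81.7, 85.6 and 98.9 at ZT17 and 57.1, 70.8 and 80.7 at ZT23 (adjusted p = 0.035, edgeR).

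Whether the time course itself differed between GF and SPF colon was tested in a fit of all 64 libraries. It did for Hadha (adjusted p = 0.0138, edgeR) and Eci2 (adjusted p = 0.0308, edgeR), that is 2 of 31 against 3.55% of all genes tested, and the next gene was Ucp2 (adjusted p = 0.065, edgeR). Hadha had 225, 259 and 291 CPM at ZT5 (lowest, median and highest of 8 libraries), 222, 236 and 276 at ZT11, 175, 227 and 302 at ZT17 and 179, 211 and 265 at ZT23 in GF colon. In SPF colon it had 182, 217 and 250 CPM at ZT5, 182, 242 and 273 at ZT11, 215, 302 and 356 at ZT17 and 198, 243 and 278 at ZT23. The GF median was highest at ZT5 and the SPF median at ZT17. Eci2 had 38.2, 46.7 and 60.3 CPM at ZT5, 32.9, 46.2 and 58.6 at ZT11, 43.0, 49.6 and 58.0 at ZT17 and 33.1, 41.6 and 52.9 at ZT23 in GF colon, where the times overlapped, beside the SPF values given above. At ZT17 Eci2 ran from 43.0 to 49.9 CPM in GF vancomycin libraries and from 49.3 to 58.0 CPM in GF PBS libraries, ranges that overlapped, with no call for vancomycin at that time or for treatment by time. The Hadha call held in all settings and leave-one-out fits run. The Eci2 call was lost without GF PBS ZT5 replicate 3, with the epithelium score as a covariate and without the filter on low counts. Exons of Hadha overlap those of Garem2 and exons of Eci2 those of Gm16984, and as no use of strand is stated, reads of the partners cannot be told apart.

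**Figure D3:**
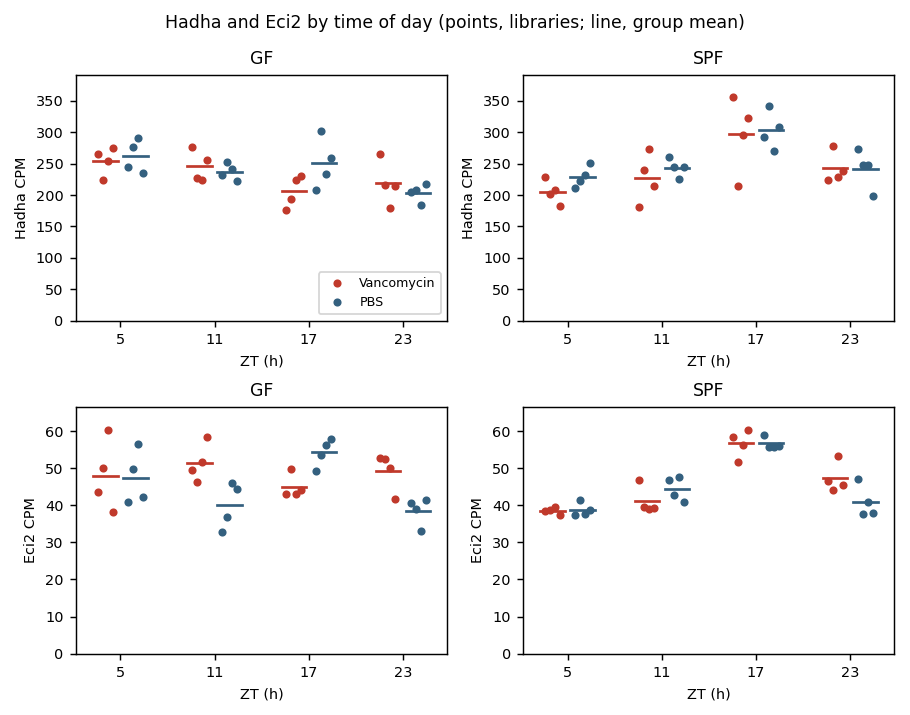
CPM of Hadha and Eci2 (vertical axis) by ZT in hours (horizontal axis), GF libraries in the left panels and SPF libraries in the right panels, with points for libraries (vancomycin in red, PBS in blue) and bars for group means (n = 4). SPF values peak at ZT17 for both genes, with medians of 302 and 56.2 CPM, and the GF medians at that time are 227 and 49.6 CPM.

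Vancomycin was compared with PBS in each table, as the mean of the differences at the 4 times. It changed 0 of the 31 genes in GF colon and lowered 3 of 31 in SPF colon, against 0% of all genes called in GF and 0.809% called in either direction (0.378% higher and 0.431% lower) in SPF colon. The 3 genes were Cpt1a, Acads and Acaa1a. No gene of the set rose with vancomycin past the threshold in either table.

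In GF colon, 2 genes had an unadjusted p under 0.05 for vancomycin (3.96% of all genes), and DESeq2 and limma called 0. Angptl4 had 0.987, 3.61 and 17 CPM with vancomycin, against 0.450, 1.42 and 5.57 CPM with PBS (lowest, median and highest of 16 libraries each). The ranges overlapped, with the highest values in vancomycin libraries, and the log2 difference was 1.26 ± 0.37 (SE; adjusted p = 1.00, edgeR). It was 0.90 with the Hox score as a covariate and 0.76 with an adipocyte score. Bdh1 had 117, 149 and 192 CPM with vancomycin, against 142, 161 and 270 CPM with PBS, a log2 difference of -0.22 ± 0.087 (SE; adjusted p = 1.00, edgeR). Of the 31 differences 19 were above 0, with a median of 0.03 against 0.0067 for all genes, but 11 were above 0 with the Hox score as a covariate and 10 with the adipocyte score.

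At single times in GF colon no gene passed the threshold (0 of 31, 0% of all genes and 0 by DESeq2 or limma at each time), while most differences had 1 sign at ZT17 and the other at ZT23. At ZT17 vancomycin libraries were lower than PBS libraries for 28 of 31 genes, with a median log2 difference of -0.27. Unadjusted p-values under 0.05 numbered 5 there (4.47% of all genes). At ZT23 vancomycin libraries were higher for 28 of 31, with a median of 0.31 and 10 such p-values (12.1% of all genes). The Hox scores differed between the same groups: 2.55 to 4.74 with vancomycin against -1.73 to 4.59 with PBS at ZT17, and -2.35 to 4.33 with vancomycin against 3.67 to 4.54 with PBS at ZT23. Among libraries with a Hox score above 3, 17 of 31 genes were lower at ZT17 (median -0.05) and 19 of 31 higher at ZT23 (median 0.04), but this sets 3 vancomycin libraries against 1 PBS library at ZT17 and 1 vancomycin library against 4 PBS libraries at ZT23, so the values describe single libraries. With the score as a covariate in all libraries, 25 were lower at ZT17 (median -0.15) and 25 higher at ZT23 (median 0.08). The treatment by time interaction in GF colon was called for 0 of 31 (0% of all genes), with 10 unadjusted p-values under 0.05, which 8.29% of all genes had.

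In SPF colon, Cpt1a had 102, 131 and 283 CPM with vancomycin, against 121, 172 and 240 CPM with PBS. By time, the 4 vancomycin libraries lay below all 4 PBS libraries at ZT5 (110, 121, 134 and 140 against 149, 150, 159 and 173 CPM) and at ZT11 (102, 108, 128 and 159 against 170, 182, 197 and 207 CPM). At ZT17 the groups overlapped, with 152, 209, 215 and 283 CPM in vancomycin libraries and 193, 193, 218 and 240 CPM in PBS libraries. At ZT23 vancomycin libraries had 102, 115, 118 and 135 CPM, against 121, 151, 152 and 153 CPM in PBS libraries, which overlapped through 1 PBS library. The mean log2 difference was -0.30 ± 0.072 (SE; adjusted p = 0.046, edgeR).

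Acads, the short-chain acyl-CoA dehydrogenase that acts on butyryl-CoA, had 88.0, 121 and 194 CPM with vancomycin, against 121, 159 and 197 CPM with PBS, a log2 difference of -0.32 ± 0.078 (SE; adjusted p = 0.047, edgeR). Acaa1a had 52.9, 73.3 and 112 CPM with vancomycin, against 66.9, 95.2 and 114 CPM with PBS, a log2 difference of -0.33 ± 0.081 (SE; adjusted p = 0.046, edgeR). For both genes the ranges of the 16 and 16 libraries overlapped while the medians stood apart. Acaa1a shares sequence with its close copy Acaa1b and overlaps exons of Myd88, so its level is uncertain. Acadm, the medium-chain acyl-CoA dehydrogenase, had a log2 difference of -0.25 ± 0.084 that did not pass (SE; adjusted p = 0.15, edgeR).

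These 3 calls were near the threshold and did not hold in most refits. Leaving out any 1 of 23 of the 32 SPF libraries brought the count to 0 or 1, and it was 0 with the Hox score, an epithelium score or a B cell score as a covariate. The mean epithelium score was 9.67 in vancomycin and 9.83 in PBS libraries, with summed markers of 11142 to 17541 and 10621 to 19211 CPM, and at ZT5 the scores were 9.50 and 9.93. A score of absorptive colonocyte markers differed more, at 8.97 in vancomycin and 9.23 in PBS libraries, and 8.78 and 9.41 at ZT5, and a T cell score was 3.27 and 2.29. The B cell score averaged 4.64 in vancomycin and 3.93 in PBS libraries, and adipocyte markers summed to 115 to 452 CPM and 201 to 1009 CPM, with 1 gene called once the adipocyte score was a covariate. The part of colonocytes and T cells in the 3 differences was not tested. Of all 31 SPF differences 24 were below 0, with a median of -0.03 against -0.004 for all genes, but 17 of 31 were above 0 with the epithelium score as a covariate and 17 with the B cell score.

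At single times in SPF colon 0 of the 31 genes were called, against 0.0827% of all genes at ZT5 (0.0177% higher, 0.0649% lower), 0% at ZT11, 0.319% at ZT17 (0.13% higher, 0.189% lower) and 0% at ZT23. Unadjusted p-values under 0.05 numbered 4, 4, 2 and 3 at these times, which 14.2%, 9.86%, 8.65% and 7.34% of all genes had. DESeq2 called 1 gene at ZT11 and 0 at the other times, and limma called 0 throughout. The vancomycin difference was not called as different between GF and SPF colon for any of the 31 genes (0% of all genes). DESeq2 and limma called 0 as well. Unadjusted p-values under 0.05 numbered 3, against 9.94% of all genes. The smallest of those were for Acaa1a, Acadm and Cpt1a, with GF minus SPF differences in the log2 vancomycin effect of 0.45 ± 0.14, 0.37 ± 0.13 and 0.33 ± 0.13 (SE; adjusted p = 0.31, 0.40 and 0.42, edgeR).

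**Figure D4:**
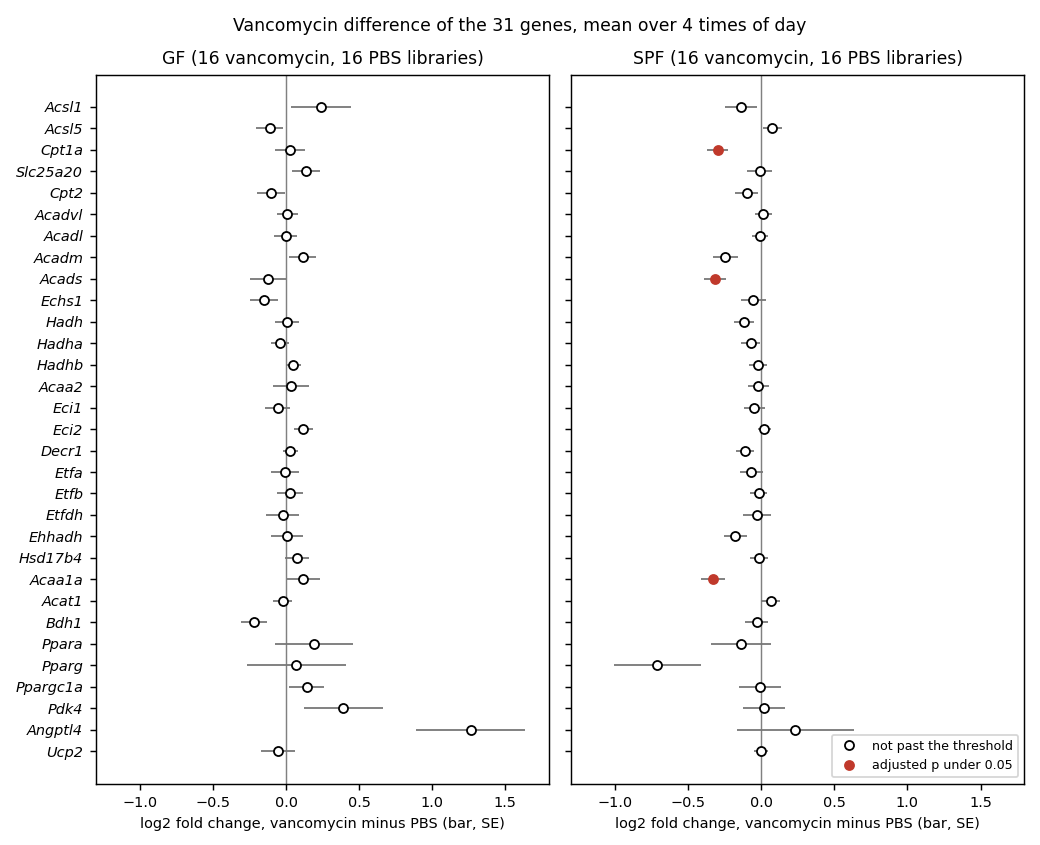
Log2 fold change, vancomycin over PBS, as the mean over 4 times with its SE (horizontal axis) for each of the 31 genes (vertical axis), GF in the left panel and SPF in the right. Red marks an adjusted p under 0.05, which Cpt1a, Acads and Acaa1a have in SPF colon and no gene has in GF colon.

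The regulators and fuel-choice genes did not pass for vancomycin in either table. Pparg, the nuclear receptor of fat cells and colon epithelium, had 13.4, 39.7 and 145 CPM with vancomycin against 13.1, 47.8 and 181 CPM with PBS in GF colon. In SPF colon it had 8.81, 32.9 and 99.8 CPM with vancomycin, against 14.5, 62.1 and 133 CPM with PBS, a log2 difference of -0.71 ± 0.30 (SE; adjusted p = 0.24, edgeR). Libraries of 1 group differed by several-fold in Pparg, as at SPF PBS ZT5, where they had 133, 89.1, 67.3 and 14.6 CPM. Ppara, the receptor that drives fatty acid oxidation in liver, differed by 0.19 ± 0.27 in GF and -0.14 ± 0.20 in SPF colon, and Ppargc1a by 0.14 ± 0.12 in GF and -0.01 ± 0.14 in SPF colon (log2, SE). Pdk4 differed by 0.39 ± 0.27 in GF and 0.02 ± 0.15 in SPF colon, and Ucp2 by -0.05 ± 0.12 in GF and 0.0014 ± 0.047 in SPF colon (log2, SE). Among the other pathway genes vancomycin changed 0 of 83 in GF colon, with 3 unadjusted p-values under 0.05 (3.96% of all genes). It changed 0 of 81 in SPF colon, with 16 such p-values (16.2% of all genes) and 65 of 81 differences below 0.

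Because the Hox score varied so much among GF libraries, the 31 genes were also fitted against it in edgeR, a comparison chosen after seeing the data. The list of genes was likewise chosen with earlier results of these data known. Over 32 GF libraries, with the groups in the fit, 19 of 31 genes fell as the score rose toward the distal end and 0 rose, against 20.8% of all genes called in either direction and 9.56% called as falling. The median slope was -0.0651 log2 units per unit of score for the 31 genes and 0.0015 for all genes, and 29 of 31 slopes were below 0. Hsd17b4 had 63.6, 81.0 and 88.2 CPM in the 15 libraries at 3 or below (lowest, median and highest), against 49.2, 57.7 and 72.1 CPM in the 17 libraries above 3, a slope of -0.09 ± 0.012 (SE). Pparg had 35.0, 107 and 181 CPM in the libraries at 3 or below, against 13.2, 21.5 and 74.2 CPM above 3, a slope of -0.36 ± 0.057 (SE). For both genes the ranges overlapped, with the median of the low-score libraries above the highest value on the other side.

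Pdk4 had 8.07, 11.8 and 26.9 CPM in the libraries at 3 or below and 2.40, 5.25 and 11.4 CPM in those above 3, and Ppara had 8.82, 15.6 and 53.2 CPM against 3.38, 8.18 and 12.9 CPM. Ucp2 had 458, 718 and 979 CPM in the libraries at 3 or below, against 304, 526 and 615 CPM above 3. Slopes of these 3 genes were -0.25, -0.23 and -0.11. Ppargc1a and Acsl5 had slopes above 0, at 0.07 and 0.03, and neither was called.

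The mean log2 CPM of the 31 genes was 6.44 ± 0.18 in the 15 libraries at 3 or below and 6.05 ± 0.12 in the 17 above 3 (SD). All 10 adipocyte markers summed to 221 to 1872 CPM in the 15 libraries and to 145 to 778 CPM in the 17, where Adipoq, Lep and Retn were at 0 in at least 1 library, and the epithelium score averaged 10.1 and 9.80. Other markers differed as well, with median sums of 21288.4 and 11450.5 CPM for smooth muscle and 18.3 and 302 CPM for B cells. For T cells these were 7.71 and 49.9 CPM, and for plasma cells 161 and 498 CPM. Scores of smooth muscle, T cells and plasma cells were not fitted, so their part in the slopes was not tested. With the adipocyte score as a covariate 10 of 31 genes were called, with the epithelium score 16 and with a B cell score 9, against 10.7%, 22.8% and 6.45% of all genes. The median slope of the 31 genes was -0.0639, -0.0447 and -0.0444 in these fits, with 29, 27 and 26 slopes below 0. With the adipocyte score fewer genes were called, of the 31 and of all genes, at nearly the same median slope. A median does not show how single genes moved. All called genes of the 31 in these fits were higher at low scores, as were 5.11%, 11.1% and 2.94% of all genes. Without the 2 libraries farthest from the median 17 were called, against 30.1% of all genes (15.4% higher at low scores). Within the 15 libraries at 3 or below 0 genes were called (0.419% of all genes) and 26 slopes were below 0, and within the 17 above 3 these counts were 0 (0.0531% of all genes) and 22. The median slopes of the 31 genes within these ranges were -0.0837 and -0.0978, against 0.0028 and -0.0071 for all genes, with no SE for the medians. With so few genes called overall the threshold tells little there. The counts and medians do not show whether the slopes hold within a range.

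**Figure D5:**
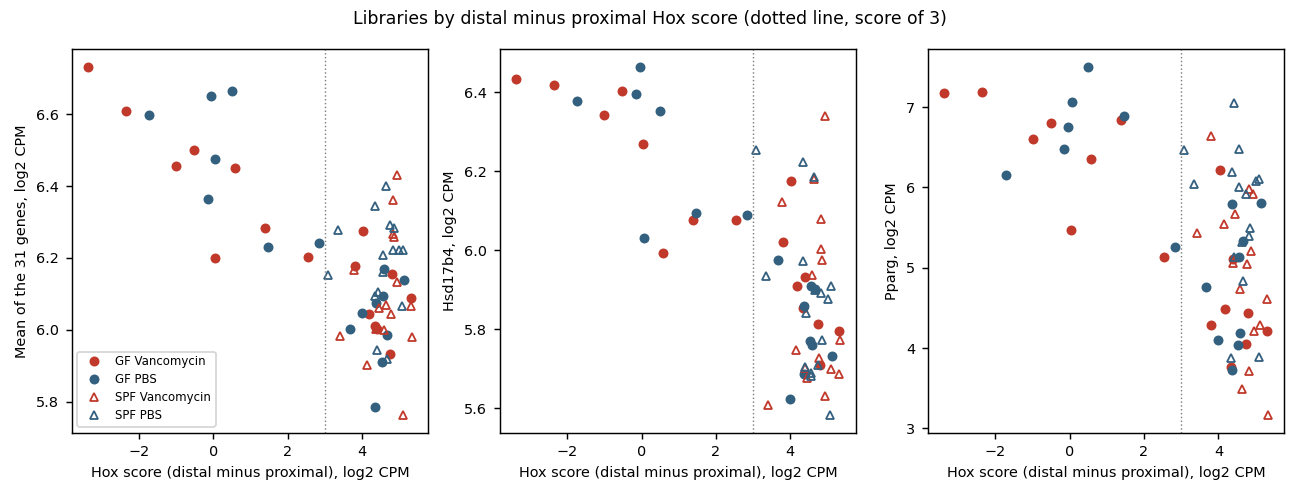
Mean log2 CPM of the 31 genes, and log2 CPM of Hsd17b4 and of Pparg (vertical axes), against the Hox score (horizontal axis, distal minus proximal, log2), with filled circles for GF and open triangles for SPF libraries, red for vancomycin, blue for PBS, and a dotted line at a score of 3. SPF libraries all lie to the right of the line, and for the mean of the 31 genes the GF libraries at 3 or below average 6.44, against 6.05 for those above 3.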

How the data were processed

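Whole colon RNA of 64 libraries was measured by poly(A)-selected RNA-seq with single-end reads, per the labels' protocols. Reads were trimmed and quantified with tools that the submitters' processing notes list as cutadapt 3.5, Trim Galore 0.6.2 and Salmon, with build GRCm39. For the annotation, the use of strand and the step from transcripts to genes, the sources used here give nothing. The authors deposited a GF and an SPF table of 35534 genes by 32 libraries, read here as estimated counts per gene from their values. The deposited tables are called normalized in their names with no method stated, so a scaling of single genes cannot be told apart from the counts. Totals were 10513966 to 15736087 (GF) and 10044032 to 13615804 (SPF), and precision is lowest for genes of few counts. No pair of libraries was identical.

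Each deposited count was rounded, and genes reaching a count of 10 in 4 or more libraries (16951 GF, 16938 SPF) were tested with edgeR 4.0.16 (TMM, quasi-likelihood, 8 group means a table; R 4.3.3), two-sided, with Benjamini-Hochberg adjustment and a threshold of 0.05. GF and SPF effects were compared in a fit of 64 libraries and 16604 genes. SE is the log2 difference divided by the square root of F, and log2 CPM used a prior count of 2. DESeq2 1.42.0, limma 3.58.1, RLE scaling, no filter, covariates for position and cell types, a replicate block and leaving out each library were alternatives, and the steps were tested on simulated data. A cell type score is the mean log2 CPM of a marker list. Genes described with values were those called for vancomycin, the 8 with the smallest time-of-day p in each table, the regulators, the fuel-choice genes and Cpt1a, and at most 3 other pathway genes a comparison. The result of 1 such other gene is not reported here. The members and lists were chosen with earlier results of these data known. Of the 31 genes, 11 have exons that overlap another gene in GENCODE vM21, among them Acsl1, Bdh1, Etfb, Ucp2, Hadha, Eci2 and Acaa1a, and their levels can include reads of that gene.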

Additional observations from a re-analysis of the deposited data

Results flagged for a closer look

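In groups of 4 libraries a single library stood apart from the other 3 in 27 of 288 groups examined. The rule flags about 1 in 20 groups of independent, normally spread values. Here the same libraries recur across genes and CPM can be skewed, so the count cannot be compared with that rate. SPF PBS ZT23 replicate 4 had a mean log2 CPM of 5.95 over the 31 genes, below 6.21 in the nearest library, and its epithelium score was 9.54. That library was also the lowest for Cpt1a (121 CPM) and Etfb (114 CPM) and the highest for Ppargc1a (47.2 CPM).

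In the GF vancomycin groups, replicate 1 was high for Bdh1 at ZT5 (181 CPM) and ZT11 (174 CPM) and for Pparg at ZT11 (97.0 CPM). Decr1 was high in replicate 3 at ZT5 (69.3 CPM), and Hadhb in replicate 3 at ZT17 (196 CPM). At ZT17 replicate 2 was high for Pdk4 (26.9 CPM) and Eci2 (49.9 CPM) and low for Ucp2 (458 CPM). In the GF PBS groups, high libraries were Angptl4 in ZT5 replicate 4 (5.57 CPM), Acadl in ZT11 replicate 3 (123 CPM), Cpt1a in ZT23 replicate 4 (132 CPM) and Ppargc1a in ZT23 replicate 2 (39.1 CPM).

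In the SPF vancomycin groups, ZT5 replicate 4 was high for Acsl1 (37.1 CPM) and Angptl4 (12.8 CPM), ZT11 replicate 1 for Eci2 (46.9 CPM), ZT17 replicate 3 for Pparg (63.1 CPM) and ZT17 replicate 4 for Ppara (18.6 CPM). In the SPF PBS groups, Acaa1a was high in ZT11 replicate 1 (114 CPM) and low in ZT17 replicate 1 (66.9 CPM), a library that was also low for Ppargc1a (28.7 CPM) and high for Eci2 (59.1 CPM). Angptl4 was high in SPF PBS ZT11 replicate 4 (13.9 CPM), and Etfb in SPF PBS ZT17 replicate 2 (147 CPM).

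The course over the 4 times of day differed between GF and SPF colon for Hadha (adjusted p = 0.0138, edgeR) and Eci2 (adjusted p = 0.0308, edgeR).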

How the results depend on the processing

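For SPF time of day 15 genes were called, against 13 to 20 under the other settings and 13 to 18 with 1 library left out. These are totals, which can include genes outside the 15. Within SPF vancomycin libraries the count was 7, and it was 11 with a B cell covariate or DESeq2, 4 with a position covariate, without the filter or with a replicate block, and 3 to 11 with 1 library left out. It was 3 without vancomycin ZT11 replicate 1, ZT17 replicate 4 or ZT5 replicate 3, 4 without ZT5 replicate 1 and 11 without ZT11 replicate 3. The 3 SPF vancomycin calls became 0 with a B cell, position or epithelium covariate or no filter, 1 with an adipocyte covariate, 2 with limma or the block, and 0 to 3 with 1 library left out. It was 2 or 3 without vancomycin ZT5 replicate 1 or 3, ZT11 replicate 3, ZT17 replicate 3 or ZT23 replicate 4, or PBS ZT5 replicate 1, ZT11 replicate 2, ZT17 replicate 1 or ZT23 replicate 4. SPF ZT11 gave 1 by DESeq2 and 0 to 1 (Cpt1a, without vancomycin replicate 3). GF time of day gave 1 within vancomycin with the epithelium covariate, 4 within PBS by DESeq2, and 0 to 1 with 1 library left out (Ucp2 without GF vancomycin ZT11 replicate 1; Hadhb within PBS without PBS ZT23 replicate 4). The GF and SPF courses differed for 1 gene with the epithelium covariate or no filter, and for 1 to 4 with 1 library left out (4 without GF PBS ZT11 replicate 3 or GF vancomycin ZT11 replicate 1). Slopes on the Hox score were called for 10 genes with the adipocyte and 9 with the B cell covariate, 0 within each range of the score, and 16 to 20 with 1 library left out. The causes were not tested.

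Log2 vancomycin differences that changed sign were small or spread widely, and those over Hox scores above 3 rest on 1 library in both GF groups at ZT5, in PBS at ZT17 and in vancomycin at ZT23, each assumed to vary like the others. In GF colon Cpt1a became -0.22 over Hox scores above 3, -0.035 with an adipocyte and -0.042 with a position covariate and -0.0024 by limma. Ppara in GF colon became -0.35 over Hox scores above 3 and -0.10 with either covariate. Pparg in GF colon became -0.082 with a B cell covariate, -0.18 over Hox scores above 3, -0.29 with an adipocyte and -0.23 with a position covariate and -0.052 by limma, and Ucp2 in GF colon 0.0035 with an epithelium covariate. In SPF colon Ppargc1a became 0.029 with a B cell and Pdk4 -0.070 with an epithelium covariate. Ucp2 in SPF colon became -0.00022 by DESeq2, -0.00029 with RLE, -0.00068 with an adipocyte and -0.0028 with a position covariate, and -7.6e-05 with the block. With 1 library left out, the ranges were -0.026 to 0.062 (Cpt1a) and -0.17 to 0.29 (Pparg) in GF colon, and -0.079 to 0.66 (Angptl4), -0.043 to 0.10 (Pdk4), -0.11 to 0.052 (Ppargc1a) and -0.026 to 0.018 (Ucp2) in SPF colon. The labels do not say what replicate numbers mark. Libraries of the same number had a median correlation of -0.05 in GF and 0.02 in SPF colon, against 0.0034 and -0.0091 for other numbers. Correlations over 0.1 were found in 33 of 112 same-number and 117 of 336 other-number pairs in GF colon. In SPF colon they were found in 31 of 112 and 61 of 336. These values cannot show that no cage, day or batch was shared. Apart from the count within SPF vancomycin libraries, the block changed no count of calls by over 1.5 times. Low-count genes such as Angptl4 are limited by depth.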
